A study of Mus musculus with 41 samples.

Results

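The broad H4K20me1 domains of resting wild-type neurons are the regions wider than 10000 bp on chromosomes 1 to 19 in the list called for H4K20me1 in LSD1n WT neurons at KCl 0 h. There are 695 such domains among 25235 autosomal regions of that list (25429 on all chromosomes), and among 488881 regions in all 27 lists of the series. They are 2.75% of the autosomal regions and hold 12.8 Mb, or 25.8% of the length that the list covers on autosomes. They were chosen by their called width in WT at 0 h, so their width and their presence in this list are a description.

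All groups are primary cortical neurons of the mouse, kept 10 days in vitro and held for 0 h or 1 h in medium with 55 mM KCl, which depolarizes them. H4K20me1, H3K36me3, H3K4me1 and Pol II were each profiled by chromatin immunoprecipitation and sequencing in LSD1n KO and LSD1n WT neurons at 1 h and 0 h, and H3K4me2 in LSD1n WT neurons at 1 h and 0 h. Flag-tagged LSD1n and Flag-tagged LSD1c were precipitated with a Flag antibody from R26/LSD1n and R26/LSD1c neurons at 1 h and 0 h. LSD1 itself was precipitated from LSD1n KO neurons (KCl time not given in the labels), from LSD1n WT neurons at 0 h and from wild type neurons at 1 h and 0 h. Of 41 samples, 27 have a list of called regions and fall into 26 groups. Another 10 samples of nascent RNA (GRO-seq) and 4 of RNA-seq were not analysed here. H4K20me1 in WT at 1 h has 2 libraries, which nothing in the labels says came from separate cultures, and every other group has 1. Differences between groups therefore have no replicate check and were not tested. Ranges in brackets are exact 95% intervals for counting error alone.

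H4K20me1 is a single methyl group on lysine 20 of histone H4. It is laid down by the methyltransferase KMT5A and is often found along the bodies of genes. LSD1 is a demethylase of histone H3, and LSD1n is its neuronal splice form, with LSD1c the form that lacks the neuronal exon. H3K4me2 marks promoters and enhancers, H3K4me1 marks enhancers and the flanks of promoters, H3K36me3 follows elongating polymerase along gene bodies, and Pol II sites called with a local filter are mostly sharp peaks near start sites. Genes are not named, as no annotation on build mm9 was used.

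The libraries differed in depth and in how much was called. Total tags ranged from 6990017 to 34859557 over all lists and from 14644165 to 27586111 over the H4K20me1 lists. The share of tags inside called H4K20me1 regions was 19.6% in KO at 0 h, 2.98% in KO at 1 h, 10.2% and 0.881% in replicates 1 and 2 of WT at 1 h, and 10.5% in WT at 0 h. The sample titles carry prefixes that pair KO at 0 h with WT at 0 h, and KO at 1 h with replicate 2 of WT at 1 h, while replicate 1 has a prefix of its own. For Pol II, the genotype written inside each of the 4 files is exchanged relative to the sample labels, which are followed here.

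One domain stood apart from the others. The second widest, chr11:3026816-3100138 (build mm9, 1-based; 73.3 kb), was covered over 95.1% to 100% in all 14 other histone lists. Covered shares of H3K36me3 and H3K4me2 that rest on it are given with and without it. Its largest effect on a share of the domain length was on H3K36me3 in KO at 0 h, which covered 1.52% with it and 0.958% without it.

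The domains had a median width of 14.8 kb, with quartiles of 11.8 and 21.3 kb. The widest reached 89.1 kb, 191 were wider than 20 kb and 16 wider than 50 kb. The median over all autosomal regions of the list was 767 bp. Just inside the threshold lay chr2:125674229-125684229, chr5:34924899-34934901 and chr11:105519750-105529756, and just outside it chr12:73862453-73872451, chr6:135989066-135999052 and chr9:49523386-49533364, with widths of 9999, 9987 and 9979 bp. The rule left out 3 more regions over the threshold, on sex chromosomes.

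Many domains were parts of longer stretches. In 87 places a gap of at most 5 kb separated neighbouring domains, which involved 160 domains and had a median of 1.42 kb. An H3K4me2 region lay in 1 of these gaps, and a Pol II site in 1. Outside the domains, 26.9% of the flank (2 to 12 kb beyond an end) was covered by narrower regions of the same list. Chromosome 11 held the most domains, 66, or 0.556 per Mb, and chromosomes 14 and 19 the fewest, with 15 each. Per Mb the density was lowest on chromosome 14, at 0.124. All regions of the list had the same extremes among the autosomes, with 16.3 per Mb on chromosome 11 and 7.23 on chromosome 14.

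The domains were kept almost whole in KO neurons at 0 h. A median of 100% of a domain was covered in that list, with a minimum of 72.0%, and 98.7% of the whole domain length was covered. All 695 domains were covered over at least 50% of their length, where 67.7% of all autosomal WT regions were. This share depended on width over the whole list: 52.6% of WT regions up to 1 kb, 94.1% of those between 2 and 5 kb and 99.8% of those between 5 and 10 kb met the same condition. In KO at 0 h 641 of the 695 domains lay in 1 piece.

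The KO regions at 0 h also ran past the domain ends. They reached beyond at least 1 end in 682 domains, by a median of 9.14 kb summed over both ends and by more than 10 kb in 329 domains. Neighbouring domains were joined by 72 KO regions, which held 157 domains and up to 3 each. One of them, chr8:125421712-125565800, spanned 144.1 kb. The domains were chosen for being broad in WT, and regions that are narrow in WT and broad in KO are left out by that rule, so these widths show no change by themselves. In the KO list at 0 h 1810 autosomal regions were wider than 10 kb. Of these, 33.7% met a domain and all 1810 met a WT region of some width.

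At 1 h the WT replicates disagreed. Replicate 1 covered a median of 94.6% of a domain and 92.9% of the domain length. Replicate 2 covered a median of 3.75% of a domain and 12.6% of the domain length. At least 50% of the length was covered in 686 domains in replicate 1 (98.7%; 43.3% of all autosomal WT regions) and in 21 domains in replicate 2 (3.02%, 1.88 to 4.58; 0.773% of all autosomal WT regions). The mean over both was 50.9% ± 67.7 (SD, n = 2), so the WT value at 1 h rests on which library is used.

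KO at 1 h lay between these replicates. Its list covered a median of 32.6% of a domain and 43.1% of the domain length. At least 50% was covered in 209 domains (30.1%, 26.7 to 33.6; 4.81% of all autosomal WT regions). Against replicate 2 of WT, which shares its title prefix, the covered share was higher in KO in 627 domains, lower in 17 and equal in 51. The KO list was also the longer of the 2, with 11.98 Mb of the autosomes covered against 2.92 Mb. The part of list length in this was not tested, and the comparison was not made over all autosomal WT regions. Against replicate 1 of WT the order was the opposite for the covered domain length, 43.1% in KO and 92.9% in WT. Of the 21 domains kept in replicate 2, 20 were also kept in KO at 1 h. The domain length was in pieces in these lists: the longest piece had a median of 2.51 kb in KO at 1 h and 0.501 kb in replicate 2 of WT, against 12.3 kb in replicate 1.

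**Figure D1:**
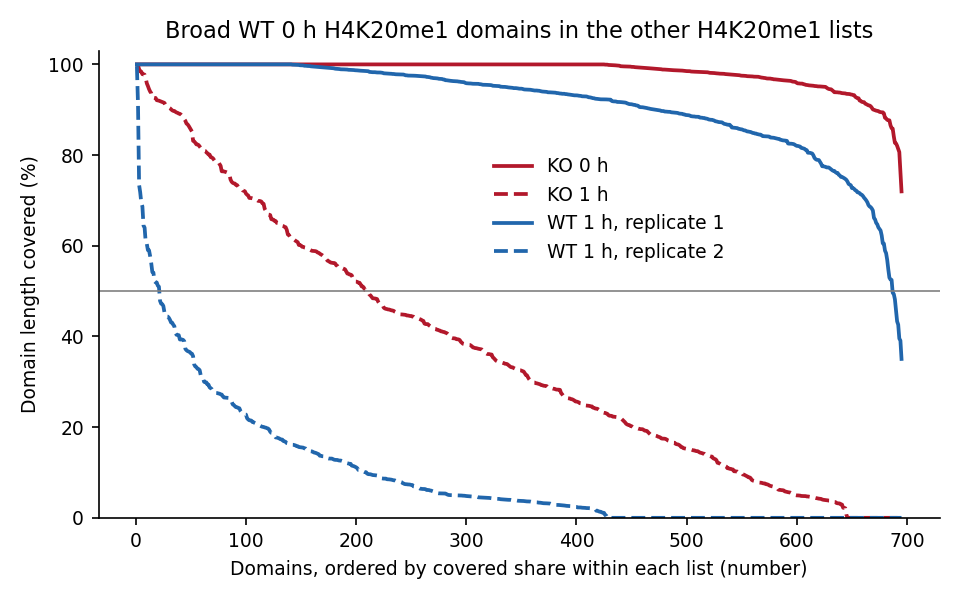
Share of each domain's length covered by called regions (y axis, %) in the other H4K20me1 lists, with the 695 domains ordered by that share within each list (x axis, number of domains); each line is 1 list and the grey line marks 50%. KO at 0 h and replicate 1 of WT at 1 h stay near full coverage, while 209 domains in KO at 1 h and 21 in replicate 2 of WT at 1 h lie at or above the grey line.

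Counting the other H4K20me1 lists in which a domain was covered by at least 50%, 478 domains were kept in 2 lists, 189 in 3, 20 in all 4 and 8 in 1. The median width rose with the number of lists, with 11.5 kb for 1 list, 13.8 kb for 2, 18.8 kb for 3 and 23.6 kb for 4. The number of lists was not counted for all autosomal WT regions. By list, 67.7% of those regions were covered by at least 50% in KO at 0 h and 4.81% in KO at 1 h. In replicates 1 and 2 of WT at 1 h these shares were 43.3% and 0.773%. Across the 695 domains the rank correlation of width with covered share was 0.37 in KO at 1 h, 0.26 in replicate 1 and 0.33 in replicate 2 of WT at 1 h, and 0.06 in KO at 0 h, where most domains were at 100%. This correlation is a description over regions that share a library.

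The widest domain, chr13:100195030-100284178 (89.1 kb), was covered over 100% in KO at 0 h, 97.8% in KO at 1 h, and 100% and 59.0% in replicates 1 and 2 of WT at 1 h. It was kept in every list, as was the domain on chromosome 11 that stood apart. The third widest, chr2:6623186-6694002 (70.8 kb), was covered over 99.7% in KO at 0 h, 98.4% in KO at 1 h, and 95.4% and 26.5% in the WT replicates at 1 h. By contrast chr11:30082185-30152199 (70.0 kb) was covered over 56.6% in KO at 1 h and 14.7% in replicate 2 of WT at 1 h. Domains of nearly the same width thus had unlike shares. The fifth and sixth widest were chr9:49535501-49605341 (69.8 kb), covered over 90.5% in KO at 1 h, and chr8:125503040-125566070 (63.0 kb), covered over 90.6%. In KO at 0 h the regions holding these 2 reached 75.4 and 81.3 kb past their ends.

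At the low end, no domain was missing from KO at 0 h or from replicate 1 of WT at 1 h. The 3 least covered in KO at 0 h were chr1:23915422-23929094 (72.0%), chr5:102438403-102449023 (76.2%) and chr3:118187091-118200081 (80.7%). The domain on chromosome 5 was also the least covered in replicate 1 of WT at 1 h, at 35.0%, followed by chr14:37762617-37773653 (39.1%) and chr13:52614728-52624738 (39.5%). All 5 had no base covered in replicate 2 of WT at 1 h and at most 4.72% covered in KO at 1 h. Over all domains, 50 had no base covered in KO at 1 h and 268 none in replicate 2 of WT at 1 h. These lists covered only 11.98 and 2.92 Mb of the autosomes. The share of all autosomal WT regions with no base covered was not computed, so the counts are not a trait of the domains.

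Set beside narrower regions of the same list, the domains held a close share of H3K4me1 and a lower share of H3K4me2. They held more H4K20me1 from the other lists, and fewer LSD1 and Pol II sites per Mb. H3K4me1 in WT at 0 h covered 14.2% of the domain length and 14.2% of the narrower regions. H3K4me2 in WT covered 5.41% and 7.94% at 1 h, and 7.24% and 10.6% at 0 h. Without the domain on chromosome 11 that stood apart, H3K4me2 covered 4.89% of the domain length at 1 h and 6.71% at 0 h. Flag-LSD1n at 1 h had 3.99 sites per Mb of domain (2.97 to 5.25) and 13.6 per Mb of narrower region (12.5 to 14.9). LSD1 of wild type neurons at 0 h had 18.9 sites per Mb of domain (16.6 to 21.4) and 43.7 per Mb of narrower region (41.6 to 45.9). Pol II in WT at 0 h had 9.71 (8.07 to 11.6) and 18.2 (16.9 to 19.7). Within the domains, regions over 20 kb and those of 10 to 20 kb had 2.36 and 5.41 Flag-LSD1n sites per Mb at 1 h. Pol II in WT at 0 h had closer values, 9.09 and 10.2, and no intervals were computed for these classes. Of the 51 Flag-LSD1n sites in domains at 1 h, 6 lay more than 2 kb from an end, and wider regions have fewer ends per Mb. The part of this in the lower densities was not tested.

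**Figure D2:**
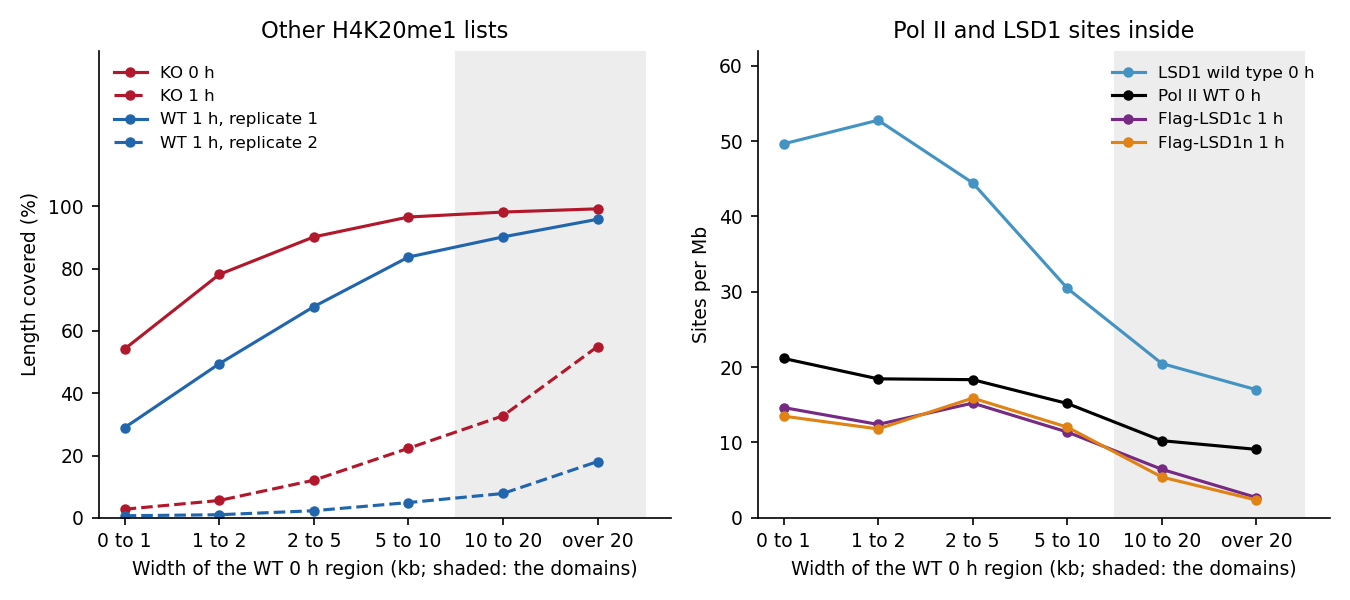
Values by the width of the WT 0 h H4K20me1 region (x axis, kb; the shaded classes are the domains): left, share of the length covered in each other H4K20me1 list (y axis, %); right, sites per Mb of Pol II, LSD1, Flag-LSD1n and Flag-LSD1c (y axis), 1 list per line. Coverage climbs with width in each of the 4 lists, up to 99.2% in KO at 0 h and 55.0% in KO at 1 h for regions over 20 kb, while Flag-LSD1n sites drop to 2.36 per Mb there.

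H3K36me3, the mark of elongation along gene bodies, covered little of the domains and little of the narrower regions of the same list. In WT at 1 h it covered 6.26% of the interior (more than 2 kb from an end) and 4.58% of the flank, and without the domain on chromosome 11 that stood apart 5.60% of the interior. In WT at 0 h it touched 222 domains (31.9%; 7.74% of all autosomal WT regions, a condition that a wide region meets more easily) and covered 4.19% of the domain length. The covered share in the interior was 4.24%, against 2.79% in the flank and 0.307% on autosomes outside H4K20me1 regions. Without the domain on chromosome 11, the interior share at 0 h was 3.57% and its ratio to the flank 1.28 rather than 1.52. In the narrower H4K20me1 regions the share was 5.19% in WT at 1 h and 3.66% in WT at 0 h. The whole domain length had 6.28% and 4.19%, and without the domain on chromosome 11 it had 5.74% and 3.64%.

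In KO the H3K36me3 lists were shorter, with 3152 autosomal regions in KO and 17408 in WT at 1 h, and 3612 in KO and 11459 in WT at 0 h. The shares of tags in regions were 0.644% in KO and 3.24% in WT at 1 h, and 0.834% in KO and 1.99% in WT at 0 h. The covered share of the domains was also smaller in KO, at 1 h and at 0 h alike. At 1 h it was 2.01% in KO and 6.28% in WT, and at 0 h 1.52% in KO and 4.19% in WT. Without the domain on chromosome 11 it was 1.46% in KO and 5.74% in WT at 1 h, and 0.958% in KO and 3.64% in WT at 0 h. Between the times, covered share and list length went opposite ways in KO. There the list was shorter at 1 h, while the covered share was higher, with or without that domain. In WT the list was longer and the covered share higher at 1 h. The part of list length in these differences was not tested. The KO lists touched 132 domains at 1 h (18.99%; 3.24% of all autosomal WT regions) and 102 at 0 h (14.7%; 3.25%), and WT at 1 h touched 295 (42.4%; 10.8%). At least 1 of the 4 lists touched 350 domains (50.4%; 14.6%), of which 141 had the mark in 1 list, 79 in 2, 68 in 3 and 62 in all 4.

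Domains that carried H3K36me3 in WT at 0 h were kept more often in KO at 1 h and in replicate 2 of WT at 1 h than those without it. At least 50% of the domain was covered in KO at 1 h in 51.4% of the 222 domains with the mark and 20.1% of the 473 without it. In replicate 2 of WT at 1 h these shares were 7.21% and 1.06%, and in replicate 1, where most domains were kept, 99.5% and 98.3%. Domains with the mark were also wider, with medians of 16.8 kb and 14.0 kb, and the part of width in the difference was not tested. After the domain on chromosome 11, the largest H3K36me3 shares in WT at 0 h were those of chr19:44368875-44383231 (80.2%) and chr7:86649475-86659847 (68.1%). The first of these was also covered over 91.2% by H4K20me1 in replicate 2 of WT at 1 h.

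H3K4me1, the mark of enhancers and promoter flanks, filled the interior more than the edges or the flank in all 4 lists. In WT at 0 h it touched 561 domains (80.7%; 27% of all autosomal WT regions) and covered 14.9% of the interior, 9.11% of the edge (within 2 kb of an end, inside or outside) and 5.35% of the flank. The ratio of interior to flank was 2.95 in KO at 1 h, 2.72 in WT at 1 h, 2.64 in KO at 0 h and 2.79 in WT at 0 h. Without the domain on chromosome 11 the ratios ran from 2.52 to 2.90.

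By genotype and time the H3K4me1 share of the domain length was 28.5% in KO and 18.3% in WT at 1 h, and 11.9% in KO and 14.2% in WT at 0 h. The genotype difference thus had opposite signs at the 2 times. The length of the lists moved in the same way, with 62758 autosomal regions in KO and 44683 in WT at 1 h, and 33155 in KO and 37106 in WT at 0 h. The KO library at 1 h was also the deepest, with 34859557 total tags against 23440511 in WT at 1 h. At 0 h there were 22970480 in KO and 23973912 in WT. The part of depth in the difference was not tested. In the narrower H4K20me1 regions the shares were 27.4% in KO and 19.5% in WT at 1 h, and 12.2% in KO and 14.2% in WT at 0 h, so the order was the same there.

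H3K4me2, the mark of promoters and enhancers, lay at the ends of the domains. At 1 h it covered 13.7% of the edge, 3.15% of the interior and 2.56% of the flank. At 0 h it covered 20.4% of the edge, 4.01% of the interior and 3.63% of the flank, a ratio of edge to interior of 5.09. At both times the interior was above the flank only through the domain on chromosome 11. Without it, H3K4me2 covered 2.49% of the interior and 2.55% of the flank at 1 h, and 3.34% of the interior and 3.63% of the flank at 0 h. Within the domains H3K4me2 covered 5.41% of the length at 1 h and 7.24% at 0 h, while the list was shorter at 1 h, with 15081 autosomal regions and 16358 at 0 h.

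**Figure D3:**
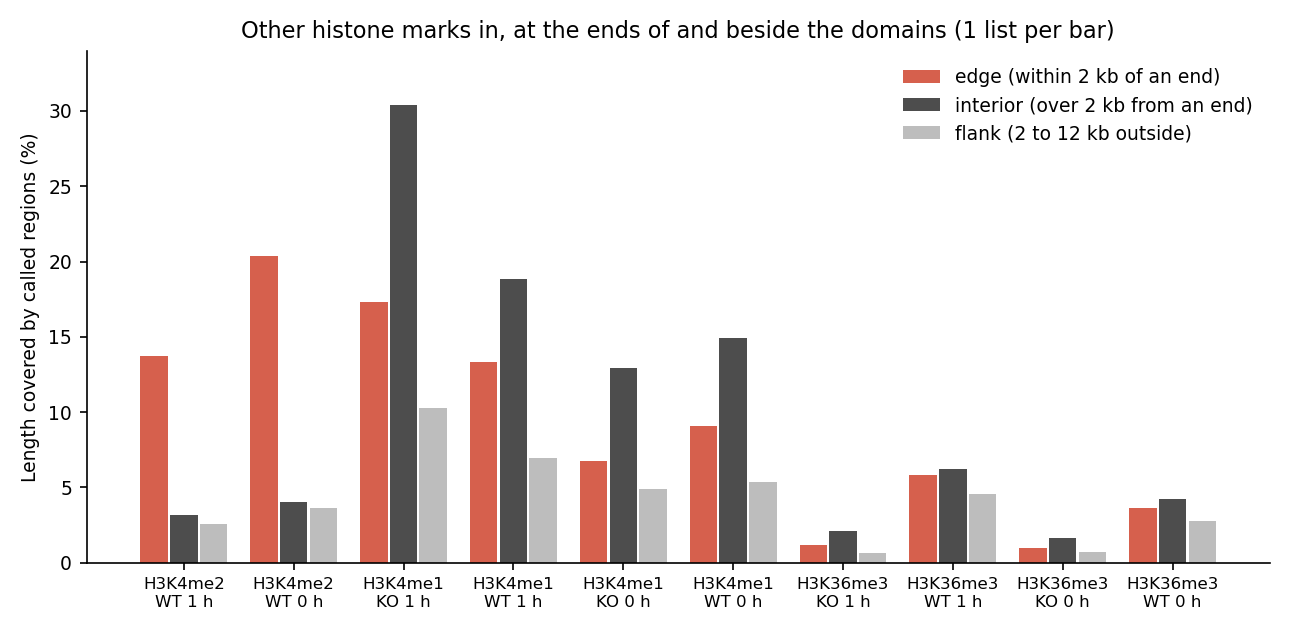
Share of length covered by called regions (y axis, %) within 2 kb of a domain end, in the interior and in the flank 2 to 12 kb outside, for each list of H3K4me2, H3K4me1 and H3K36me3 (x axis); each bar is 1 list, so there is no error bar. H3K4me2 is highest at the edge (20.4% in WT at 0 h), and H3K4me1 is highest in the interior in each of its 4 lists (30.4% in KO at 1 h).

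The sites of Pol II and of all LSD1 forms were denser at the ends than in the interior or the flank. Pol II in WT at 0 h had 90.4 sites per Mb of edge (82.5 to 98.8), 5.40 per Mb of interior (4.06 to 7.05) and 16.0 per Mb of flank (13.8 to 18.5). The site caller asks for more tags than the surrounding 10 kb, so Pol II spread evenly along a domain would not be listed. The 4 Pol II lists were close to each other at the edge, with 92.8 sites per Mb in KO and 89.8 in WT at 1 h, and 92.6 in KO and 90.4 in WT at 0 h. Their intervals overlap, and by the names inside the files the genotypes would be exchanged.

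Flag-LSD1n sites were dense at the edge and rare in the interior. At 1 h 185 sites lay in the edge (34.6 per Mb, 29.8 to 39.9), 6 in the interior (0.600 per Mb, 0.220 to 1.31) and 49 in the flank (4.26 per Mb, 3.15 to 5.63). The edge was 8.11 times as dense as the flank (5.89 to 11.4), while the interior had 0.141 of the flank's density (0.0493 to 0.329). At 0 h 32 sites lay in the edge and none in the interior. With 3 counts as the floor, a count of 0 in the interior allows up to 0.300 sites per Mb, where the edge had 5.98 (4.09 to 8.44). The edge held 4.27% of the 4336 autosomal Flag-LSD1n sites at 1 h and 3.99% of the 802 at 0 h, so the greater number at 1 h went with a longer list.

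Flag-LSD1c, the form without the neuronal exon, had the same placement. At 1 h 299 sites lay in the edge (55.9 per Mb, 49.7 to 62.6), 7 in the interior and 64 in the flank. At 0 h 194 lay in the edge (36.2 per Mb, 31.3 to 41.7), 3 in the interior and 45 in the flank. The ratio of edge to flank at 1 h was 10.04 (7.64 to 13.4), which overlaps the interval for Flag-LSD1n. The 2 forms were tagged in separate lines and sequenced under different title prefixes.

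LSD1 precipitated without a tag was less concentrated at the ends. In wild type neurons it had 68.9 sites per Mb of edge (62.1 to 76.3) at 1 h and 54.4 (48.3 to 61.0) at 0 h, with 8.80 (7.06 to 10.9) and 12.5 (10.4 to 14.9) in the interior and 15.4 (13.2 to 17.8) and 14.6 (12.5 to 17.0) in the flank. The interior thus had 0.572 of the flank's density at 1 h (0.438 to 0.743) and 0.856 at 0 h (0.674 to 1.09), an interval that includes 1. On autosomes outside the WT 0 h H4K20me1 regions the density at 0 h was 8.66 sites per Mb, below that of the interior. The edge held 2.02% of the 18258 autosomal sites at 1 h and 1.30% of the 22305 at 0 h, so the higher density at the edge at 1 h stood beside a shorter list. In LSD1n KO neurons the edge held 36.4 sites per Mb (31.5 to 41.9), and in LSD1n WT neurons at 0 h 49.5 (43.7 to 55.8). These lists had close to the same length, 13445 and 13207 autosomal sites, and the interiors were close, at 4.80 and 4.70 per Mb. The KO library has no KCl time in its labels and another title prefix, so genotype, time and library cannot be told apart.

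Within a domain, sites were mostly single. No domain held more than 1 Flag-LSD1n site, and 51 held 1 at 1 h (7.34%; 2.12% of all autosomal WT regions). Of these the widest were chr8:125503040-125566070, chr8:11748915-11785619 (36.7 kb) and chr4:136876852-136913340 (36.5 kb). At the other extreme were up to 4 Pol II sites in a domain, in WT at 0 h and in KO at 1 h.

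Where H3K4me2, Pol II or a tagged LSD1 form lay near an end of a domain, it was mostly near 1 end only. H3K4me2 in WT at 0 h lay within 2 kb of exactly 1 end in 440 domains (63.3%, 59.6 to 66.9; 10.6% of all autosomal WT regions), of both ends in 17 and of neither in 238. For a narrow region the 2 windows largely coincide, so a mark near 1 end only is rarely possible there, and the count near at least 1 end is the closer background: 457 domains (65.8%), against 28.8% of all autosomal WT regions. Pol II in WT at 0 h was near exactly 1 end in 424 domains (61.0%, 57.3 to 64.6; 14% of all autosomal WT regions) and near both in 9. Flag-LSD1n at 1 h was near 1 end in 172 domains (24.7%; 6.3%) and Flag-LSD1c at 1 h in 270 (38.8%; 8.46%). Neither was near both ends in any domain, where a count of 0 among 695, with 3 counts as the floor, allows up to 0.432%. For Pol II and for the tagged forms at 1 h, no count near at least 1 end was made over all autosomal WT regions. The shares given for those regions have the limit stated for H3K4me2, so how the domains compare with them cannot be said.

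Pol II and LSD1 sites shared the ends with H3K4me2. Of the 474 ends with H3K4me2 in WT at 0 h, 89.2% (86.1 to 91.9) also had a Pol II site, and of the 916 ends without it, 2.07% (1.25 to 3.22). Flag-LSD1n at 1 h was at 171 of the ends with H3K4me2 (36.1%) and at 1 of those without it. Flag-LSD1c at 1 h was at 267 (56.3%) and 3. LSD1 of wild type neurons at 1 h was at 67.9% and 3.06%, and near at least 1 end of 343 domains (49.4%; 21.3% of all autosomal WT regions). The ends of all autosomal WT regions were not divided by H3K4me2 in this way. Whether the shares of ends are particular to the domains therefore cannot be said. Over all ends, H3K36me3 in WT at 0 h did not follow this division, with 14.1% (11.1 to 17.6) of ends with H3K4me2 and 17.1% (14.8 to 19.7) of those without. In the 440 domains with H3K4me2 at 1 end only, it was at that end in 54 (12.3%) and at the other end in 111 (25.2%).

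The ends with the 2 tagged forms overlapped. Both Flag-LSD1n and Flag-LSD1c at 1 h were at 135 ends, and 134 of these also had Pol II in WT at 0 h. The 135 are 78.5% of the 172 Flag-LSD1n ends and 50% of the 270 Flag-LSD1c ends. The overlap of the 2 forms over all autosomal WT regions was not counted. Whether these shares are particular to the domains therefore cannot be said. Flag-LSD1n at 0 h was at 33 ends of as many domains (4.75%; 1.92% of all autosomal WT regions), of which 17 also had it at 1 h.

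At finer scale, in bins of 500 bp over all 1390 ends, the bin with the most sites lay just outside the domain in some lists and just inside it in others. Pol II in WT at 0 h was highest in the bin centred 0.75 kb outside, at 238.8 sites per Mb. Flag-LSD1c and LSD1 of wild type neurons, both at 1 h, were highest in the same bin, at 149.6 and 165.5 sites per Mb. Flag-LSD1n at 1 h was highest 0.25 kb outside, at 97.8 sites per Mb. LSD1 in LSD1n KO neurons and in LSD1n WT neurons at 0 h was highest 0.25 kb inside, at 51.8 and 76.3 sites per Mb. H3K4me2 in WT at 0 h was highest in the bin centred 0.25 kb outside, at 25.1% covered. H3K4me1 in WT at 0 h was lowest in that outside bin, at 3.82%, and highest 2.75 kb inside, at 17.6%.

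Most LSD1 sites near an end lay outside the domain at both times, with a larger share at 1 h in wild type neurons, from 1 library per time. Of its sites within 2 kb of an end in wild type neurons, 80.9% (76.6 to 84.8) lay outside at 1 h and 60.4% (54.6 to 66.1) at 0 h. For Flag-LSD1c the shares were 82.3% (77.5 to 86.4) at 1 h and 76.8% (70.2 to 82.5) at 0 h, and for Flag-LSD1n 75.7% (68.8 to 81.7) and 84.4% (67.2 to 94.7). LSD1 in LSD1n KO neurons had 55.6% (48.4 to 62.7) and in LSD1n WT neurons at 0 h 57.3% (51.1 to 63.3) outside. The 4 Pol II lists had 83.9% to 85.9% outside.

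**Figure D4:**
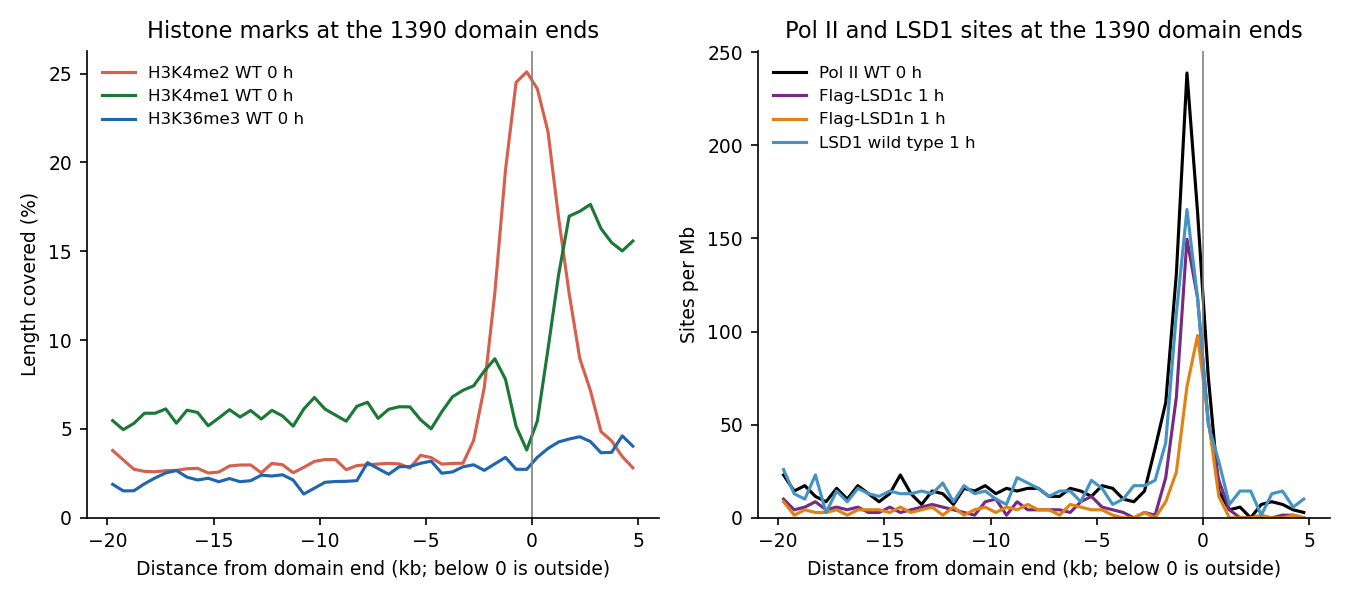
Left, share of length covered (y axis, %) by H3K4me2, H3K4me1 and H3K36me3 in WT at 0 h; right, sites per Mb (y axis) of Pol II in WT at 0 h and of Flag-LSD1c, Flag-LSD1n and LSD1 at 1 h; both in 500 bp bins by distance from the 1390 domain ends (x axis, kb, with negative values outside). In the lists drawn, sites peak 0.25 to 0.75 kb outside the end, H3K4me2 peaks at the end, and H3K4me1 is lowest at 0.25 kb outside and highest 2.75 kb inside.

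Since 440 domains had H3K4me2 at 1 end only, each could be laid out with that marked end first. Each was divided at its middle, leaving out 2 kb at each end, into a part next to the marked end and a far part. The part next to the marked end was more covered by H3K4me1. In WT at 0 h the shares were 19.7% and 10.7%, and 279 domains had more in the part next to the marked end and 81 more in the far part. The far part had between 0.532 and 0.564 of the share of the part next to the marked end in all 4 H3K4me1 lists.

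H4K20me1 in the thinner lists was graded in the same direction. KO at 1 h covered 59.8% of the part next to the marked end and 41.9% of the far part, with more next to the marked end in 311 domains and more in the far part in 93. Replicate 2 of WT at 1 h covered 22.6% and 9.43%. Along 10 equal segments of the domain, KO at 1 h reached 65.4% in the second and 23.9% in the last, and replicate 2 of WT 26.6% and 2.03%. In the lists that cover nearly everything, KO at 0 h and replicate 1 of WT at 1 h, the parts differed little, with 99.9% and 99.5% in KO and 97.0% and 95.3% in WT. With Pol II in WT at 0 h in place of H3K4me2 to mark the end (424 domains), KO at 1 h covered 59.5% and 41.3%.

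H3K36me3 was spread more evenly. In WT at 0 h it covered 4.02% of the part next to the marked end and 4.35% of the far part, with more next to the marked end in 62 domains and more in the far part in 62. With Pol II marking the end the order turned round, with 4.12% and 4.09%. H3K36me3 in WT was near at least 1 end of 259 of all the domains at 1 h (37.3%; 21.2% of all autosomal WT regions) and of 187 at 0 h (26.9%; 15.2%). Among the 440, the window within 2 kb of the marked end held H3K36me3 in 70 domains and that of the other end in 147 at 1 h, and at 0 h in 54 and 111.

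**Figure D5:**
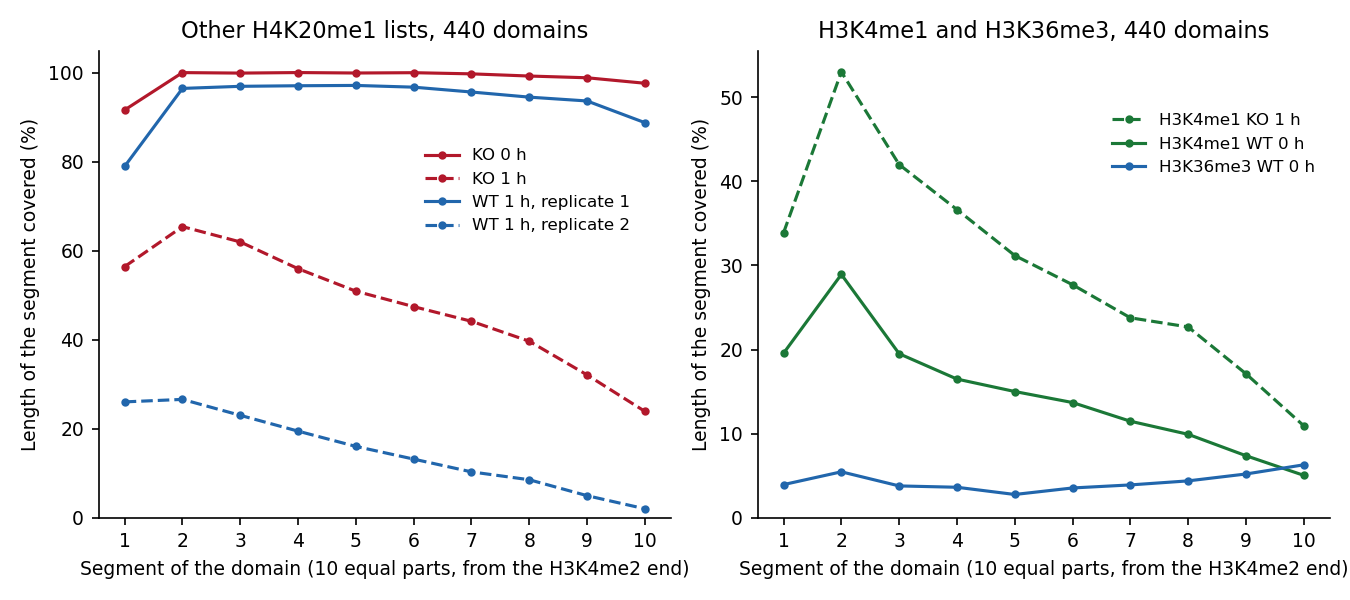
Share of length covered (y axis, %) in each of 10 equal segments of the 440 domains with H3K4me2 at 1 end, counted from that end (x axis); left, the other H4K20me1 lists, right, H3K4me1 and H3K36me3, 1 list per line. H4K20me1 in KO at 1 h is highest in the second segment (65.4%) and lowest in the last (23.9%), H3K4me1 has the same course, and H3K36me3 in WT at 0 h stays between 2.77% and 6.30%.

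The extension of the domains in KO at 0 h was on the side away from the marked end. KO regions at 0 h ran a median of 0.134 kb past the marked end and 5.67 kb past the other end. They passed the marked end by more than 1 kb in 40 of 440 domains and the other end in 365, and reached further at the other end in 390 and at the marked end in 39. Replicate 1 of WT at 1 h did the same over shorter distances, with medians of 0 and 1.16 kb and more than 1 kb in 13 and 229 domains. The thinner lists did not: KO at 1 h reached further at the marked end in 122 domains and at the other end in 41. For replicate 2 of WT at 1 h these counts were 50 and 6, with the rest equal in both lists. These distances were short, with medians of 0 at both ends. KO at 1 h passed the marked end by more than 1 kb in 11 domains and the other end in 9, and replicate 2 in 0 and 1.

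The ground beyond the 2 ends differed already in the WT list at 0 h. From 2 to 12 kb outside the marked end 5.01% was covered by narrower WT regions or other domains, and outside the other end 44.7%. In KO at 0 h these shares were 7.48% and 69.7%. H3K36me3 in WT at 0 h covered 0.560% outside the marked end and 4.54% outside the other, while H3K4me1 in WT at 0 h covered 4.93% and 5.09%. H3K4me2 in WT at 0 h, which chose the marked end, covered 4.36% and 1.10%.

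The domains can also be set side by side by whether H3K4me2 lay at neither end, at 1 or at both, with no test. The 238 domains with neither had a median width of 13.8 kb, the 440 with 1 had 15.8 kb and the 17 with both 16.5 kb. In KO at 1 h their median covered shares were 19.5%, 39.6% and 36.03%. H3K36me3 in WT at 0 h covered 1.55%, 4.30% and 30.8% of their length. The last value includes the domain on chromosome 11, and for the other 16 domains it was 14.1%. Another WT 0 h H4K20me1 region lay within 5 kb of 646 of all the domains (92.9%; 73.2% of all autosomal WT regions). These were all 238 domains with H3K4me2 at neither end, 394 of the 440 with 1 marked end (89.5%) and 14 of the 17 with both.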

How the data were processed

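Chromatin immunoprecipitation libraries of mouse cortical neurons were used as the region lists that the authors deposited, 1 list per library. The submitters' processing notes name Bowtie, HOMER and build mm9. Per the file headers, histone regions were stitched from peaks of 500 bp at a minimum distance of 1250 bp, and sites were fixed at 200 bp, kept at least 500 bp apart and required to hold 4 times the tags of the 10 kb around them. Each list was called at a rate of false discoveries of 0.001, with 150 bp fragments and at most 1 tag at a position, and no control library is named. The deposited values are start and end positions. The deposited score is 1 in every entry and was not used. With no counts per region deposited, depth is known only as the total tags in the headers.

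Covered bases, site midpoints per zone and exact intervals (Poisson for densities, conditional Poisson for ratios, Clopper-Pearson for shares, all at 95%) were computed in Python (version 3.11.15; numpy 2.4.6, scipy 1.17.1) and drawn with matplotlib 3.10.9. The code was tested on simulated data. Flanks left out all domains and their edge windows, and a mark counted as present at an overlap of at least 1 bp. The domains named are the 6 widest, the 3 least covered in KO at 0 h and in replicate 1 of WT at 1 h, the 3 with most H3K36me3 in WT at 0 h, the 3 with most Flag-LSD1n sites at 1 h, and the 3 on either side of the width threshold, with ties taken by width. The joined region on chromosome 8 was named after its values were seen. The members, lists and comparisons were chosen with earlier results of these data known. Other widths, windows, flanks, coverage thresholds and list lengths were tried as alternatives. Sequences of the domains are not shown, since no genome of build mm9 was used here.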

Additional observations from a re-analysis of the deposited data

Results flagged for a closer look

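The H3K4me1 share of the domain length differed between genotypes in opposite directions at the 2 times. KO minus WT was 10.1 percentage points at 1 h and -2.31 percentage points at 0 h. The KO library at 1 h had the most total tags of any list, 34859557, where the other H3K4me1 libraries had 22970480 to 23973912. With 1 list per group, neither the difference between the times nor the part of depth in it was tested.

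Pol II sites within the domains differed between times in opposite directions in the 2 labelled genotypes. In KO, 1 h minus 0 h was 0.861 sites per Mb, with 11.4 (9.58 to 13.4) at 1 h and 10.5 (8.79 to 12.4) at 0 h. In WT it was -0.939 sites per Mb, with 8.77 (7.22 to 10.6) at 1 h and 9.71 (8.07 to 11.6) at 0 h. The counting intervals of the 2 times overlap in both genotypes, the names inside these files give the opposite genotype, and the difference was not tested.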

How the results depend on the processing

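No paired analysis was possible because each group but 1 holds a single list and no test between groups was run. Of 132 values recomputed for 17 results, 88 stayed within limits, 42 moved outside and 2 turned round. The limits were the interval of the value reported for shares of domains and for ratios of site densities. For ratios of covered shares the limit was 1.5-fold of the value reported. No ratio of edge to flank or interior, and no ratio of interior to flank for H3K36me3 or H3K4me1 in WT at 0 h, turned round. The causes of the movements below were not tested. Leaving out 1 WT library at 1 h gave 3.02% to 98.7% of domains kept for their mean.

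The share of domains covered by at least 50% moved as follows. In KO at 0 h it was 92.3% with WT regions within 5 kb merged first (2070 domains), 96.3% at a threshold of 90% and 99.3% with the 2769 widest regions of each list. In KO at 1 h it was 20.4% for domains over 5 kb (2042), 49.2% over 20 kb (191), 5.85% merged, 4.60% at a threshold of 90% and 92.8% at 1 bp. In replicate 1 of WT at 1 h it was 95.2% over 5 kb, 100% over 20 kb, 64.0% merged, 67.8% at 90%, 100% at 1 bp and 91.5% with the widest regions. In replicate 2 it was 6.28% over 20 kb, 0.773% merged, 0.288% at 90% and 61.4% at 1 bp.

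Ratios of edge to flank site density also moved. For Pol II in WT at 0 h they were 4.70 over 5 kb, 7.14 over 20 kb, 7.29 merged, 2.99 with an edge of 5 kb and 7.04 with a flank of 2 to 52 kb. For Flag-LSD1n at 1 h they were 13.2 over 20 kb, 15.1 merged and 3.06 with an edge of 5 kb. For Flag-LSD1c at 1 h they were 18.4, 17.7 and 3.89. For LSD1 of wild type neurons they were 6.27 merged and 2.33 with an edge of 5 kb at 1 h, and 4.76 over 20 kb, 5.85 merged and 1.91 with an edge of 5 kb at 0 h. The share of domains with H3K4me2 at 1 end only was 56.8% over 5 kb, 67.5% over 20 kb and 71.3% merged. With Pol II it was 54.1%, 64.9% and 66.3%, and 47.1% with an edge of 1 kb.

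The ratio of the far part to the part next to the marked end for H3K36me3 in WT at 0 h, 1.08, was 0.937 over 20 kb and 0.993 with Pol II marking the end. In alternatives chosen after seeing the data, leaving out the domain on chromosome 11 or exchanging the Pol II lists by their inner names moved none of these 17 results past these limits; the H3K4me2 interior and H3K36me3 in KO, which are not among them, moved as given above. Called regions carry no counts, so a region just under the caller's threshold cannot be told from one that is missing.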
